A study of Drosophila melanogaster with 13 samples.

Results

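Knockdown of Yb in cultured ovarian somatic cells was compared with a luciferase control, row by row, over everything listed in the authors' deposited table for siYB and siLUC. That table held 8480 of the 8586 rows found in the series' deposited tables together. Of these, 8297 were genes and 183 were transposon rows, 90 for the sense and 93 for the antisense strand of a family. Genes and transposons were kept apart throughout. A p-value was listed for 8478 rows, the exceptions being the histone rows His1:CG33816 and His1:CG33861.

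The cells were OSC, a line derived from somatic follicle cells of the Drosophila melanogaster ovary, wildtype in genotype in every group and grown at 27 °C with 2.5% CO2 and 10% fetal bovine serum. Small interfering RNA (siRNA) was transfected at 0 h and again at 48 h, and the cells were collected at 96 h. The siYB group, with siRNA against Yb, and the siLUC group, with siRNA against luciferase, had 3 libraries each among the 13 of the series. A group with siRNA against Armitage (siARMI, 3 libraries) was compared with the same siLUC libraries and is shown beside the siYB values. All groups were transiently transfected cultures of a single cell line, so no germ cells and no ovary tissue were sampled. The labels give the RNA as poly(A)-selected, while the titles of these libraries include the tag RZ, left unexplained by the labels. Histone rows, whose main transcripts usually lack a poly(A) tail, summed to 35817 normalised counts in siLUC and 36111 in siYB, so the selection cannot be taken as certain.

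Yb, encoded by fs(1)Yb, is a Tudor domain protein of the somatic piRNA pathway and the organiser of Yb bodies, cytoplasmic granules in which precursors of Piwi-interacting RNAs (piRNAs) meet the helicase Armitage and other maturation factors. Mature piRNAs guide Piwi into the nucleus, where it silences transposons that match them. In follicle cells most piRNAs come from the flamenco locus, which carries remnants of gypsy-group long terminal repeat (LTR) retrotransposons, mostly in the orientation antisense to the element, and this group includes families that can pass from follicle cells to the oocyte.

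For every row the authors' deposited table lists the normalised read count averaged over the 6 libraries, a log2 fold change with its error, and a p-value unadjusted and adjusted by the Benjamini-Hochberg method. A row is called here when its adjusted p is under 0.05. Among the 8480 log2 fold changes of the authors' deposited table, 8458 had been shrunk to about 0, which left a p-value and a mean but no usable size. Group levels were therefore split out of the deposited means. The siLUC level of a row was taken from its mean and log2 fold change in the siARMI table, brought to the scale of the siYB table with the median ratio of the tables' mean counts over genes (3.69). The siYB level was what the siYB table's mean then left. These split levels are normalised read counts without correction for length, so they compare groups and not genes, and they carry no error of their own because values per library were not analysed here. For the same reason it cannot be said whether the libraries of the groups overlapped. In bulk RNA, fewer cells of a type and less RNA per cell cannot be told apart.

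The split was checked on the 22 rows whose deposited fold change had not been shrunk. All 22 had the same sign by both measures. Among the 11 called rises the split log2 ratio differed from that in the authors' deposited table by a median of 0.06 and at most 0.49, for blood. Some unshrunk rises that were not called differed by more. The split gave 3.56 against a deposited 2.78 for Cda5 and 2.14 against 1.35 for NT5E-2. For His2B:CG33870 it was lower, at 0.18 against 0.71. The 2 unshrunk falls came out smaller by the split, at −1.58 against −2.17 in the authors' deposited table for fs(1)Yb and −1.60 against −2.47 for antisense rover. No error can be attached to the split, and its misses, such as these falls, set how closely it can be read.

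**Figure D1:**
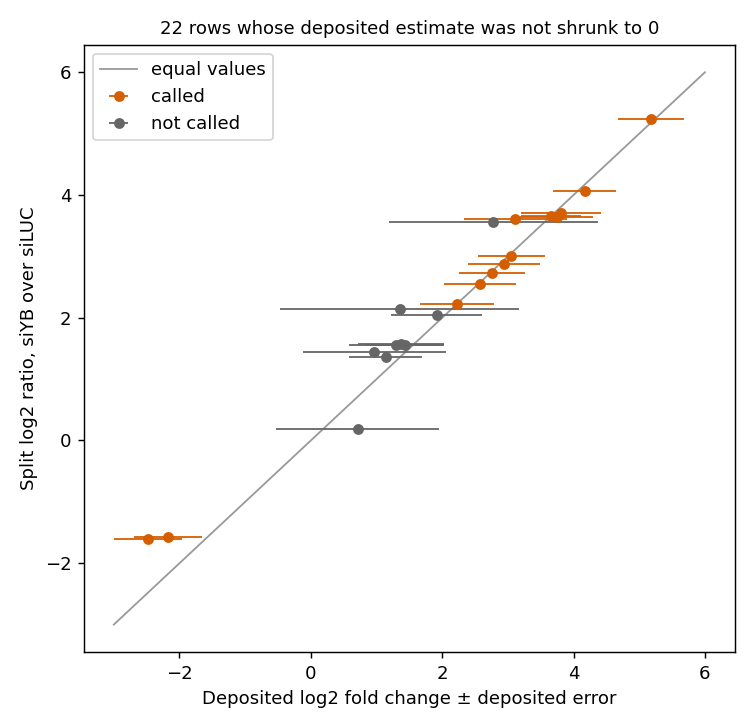
Split log2 ratio of siYB over siLUC (vertical axis) against the deposited log2 fold change with its deposited error (horizontal axis and bars) for the 22 unshrunk rows, called rows in orange and others in grey; the line marks equal values. Most called rises lie close to the line. Among rises not called, Cda5 (3.56 by the split) and NT5E-2 (2.14) lie above it and His2B:CG33870 (0.18) below it. The 2 falls lie above it, at −1.58 and −1.60 by the split.

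The targeted gene was lower. The level of fs(1)Yb (FBgn0000928, on the plus strand of X at 2720468-2724158 in BDGP6.54) was 558 in siLUC, 187 in siYB and 466 in siARMI, a split log2 ratio of −1.58 for siYB over siLUC. It passed the test in the authors' deposited table, with an adjusted p of 6.04e-04 (Benjamini-Hochberg) and rank 11 by p. The nearest genes on either side, CG2701 and fs(1)Ya, which lie 141 and 128 bases away, did not pass, with unadjusted p of 0.768 and 0.786 in the authors' deposited table.

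Over all rows tested, 16 of 8478 were called (0.189%), 12 higher and 4 lower, and 66 had an unadjusted p under 0.05 according to the authors' deposited table. The p-values leaned toward 1, with a median of 0.724 and 79.1% above 0.5 in the authors' deposited table. In the siARMI comparison against the same controls the median was 0.158 and 25.7% lay above 0.5 in the authors' deposited table. A row that missed the threshold after Yb knockdown is therefore not shown to be unchanged. Whether the libraries of a group were grown as separate cultures is not stated in the labels, and the p-values then reflect only how much these libraries varied, which may be technical variation.

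**Figure D2:**
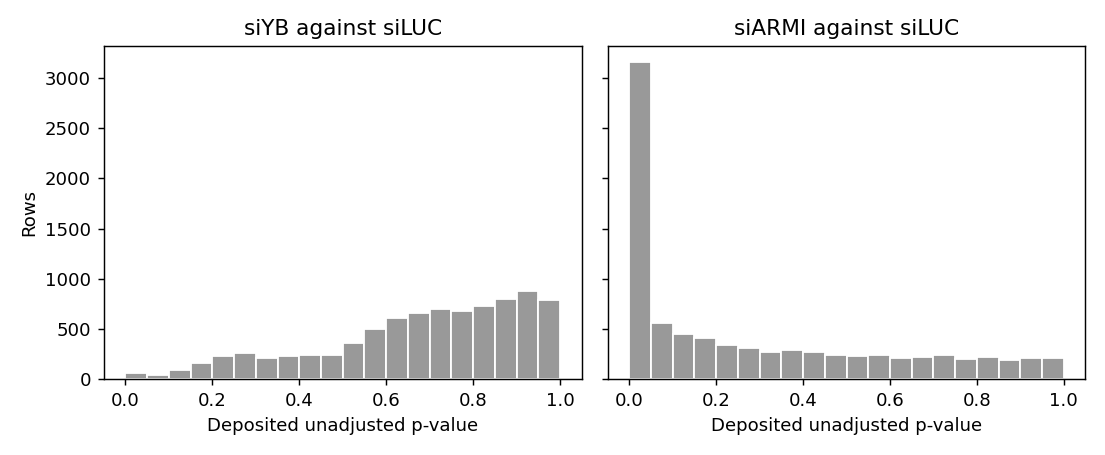
Number of rows (vertical axis) in 20 equal bins of the deposited unadjusted p-value (horizontal axis) for siYB against siLUC (left) and siARMI against siLUC (right). The siYB p-values pile up toward 1, with a median of 0.724, and those of siARMI toward 0, with a median of 0.158.

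Sense transcripts of 8 gypsy-group LTR retrotransposons rose after Yb knockdown. They were mdg1, 297, Stalker2, Tabor, 412, Quasimodo, Stalker and blood, 8 of 90 sense rows tested (8.89%), and all 8 belonged to the gypsy-group list, which had 38 measured members. Called lower were 0 of 90 sense rows (0%) in the authors' deposited table (Benjamini-Hochberg), and 0 (0%) were lower at an unadjusted p under 0.05. The median split log2 ratio over the gypsy-group sense rows was 0.28, beside 0.15 over all sense rows.

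The family mdg1 had the lowest p of all rows (Benjamini-Hochberg adjusted p = 8.38e-21 in the authors' deposited table). Its split level was 76.7 in siLUC, 2905 in siYB and 14051 in siARMI, which is a split log2 ratio of 5.24 for siYB over siLUC. The related family 412 went from 43.6 in siLUC to 351 in siYB, a split log2 ratio of 3.01, and stood at 2850 in siARMI. Both families were low in control cells and higher in siYB cells, and they were higher still in siARMI cells.

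The family 297 had a split level of 37.7 in siLUC, 630 in siYB and 2312 in siARMI. Its log2 ratio of siYB over siLUC was 4.06 by the split. Quasimodo stood at 53.2 in siLUC, 354 in siYB and 763 in siARMI, with a split log2 ratio of 2.73. Tabor stood at 21.7 in siLUC against 272 in siYB and 802 in siARMI, and its log2 ratio was 3.64.

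Stalker2, at 138 in siLUC, 1733 in siYB and 4318 in siARMI, had a split log2 ratio of 3.65. Its relative Stalker stood at 48.2 in siLUC, 284 in siYB and 992 in siARMI, a ratio of 2.56. The family blood went from 434 in siLUC to 5279 in siYB, with 12391 in siARMI and a split log2 ratio of 3.60. Its adjusted p of 0.00246 was the weakest of the 8 in the authors' deposited table (Benjamini-Hochberg), and its deposited error of 0.78 was the largest among them. Both comparisons use the same siLUC libraries, and the difference between the knockdowns was not tested.

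**Figure D3:**
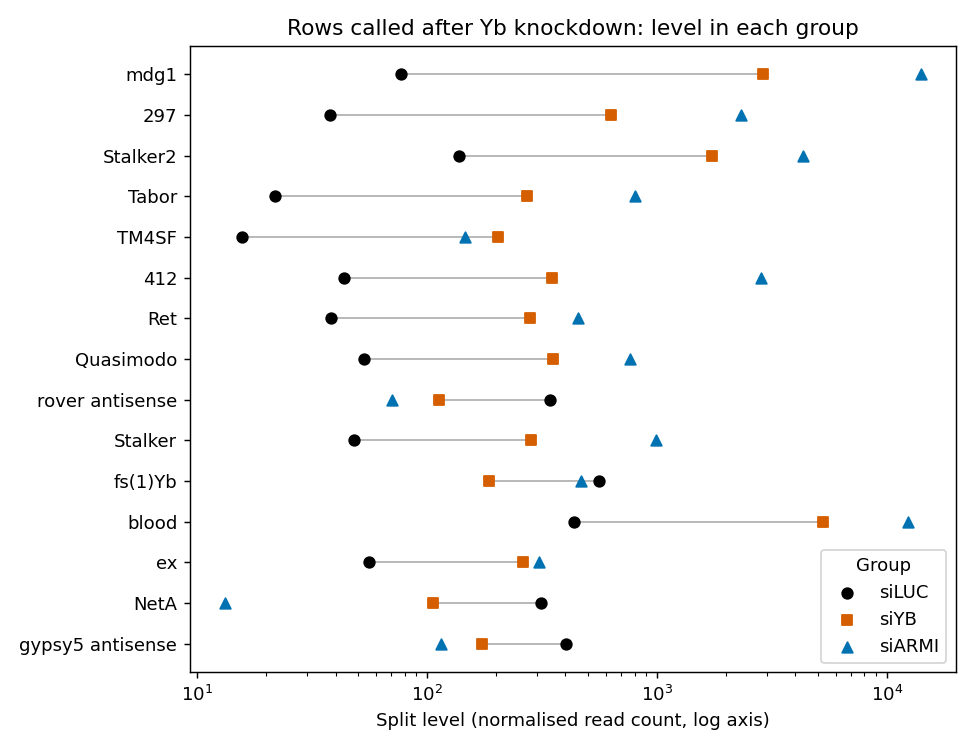
Split level in normalised read counts (horizontal log axis) of 15 called rows in siLUC (circles), siYB (squares) and siARMI (triangles); the row His2B:CG33902, whose siLUC level was below 3, is not drawn. Sense transposon rows run from left to right, such as mdg1 from 76.7 to 2905 in siYB, and the falls run the other way, such as NetA from 314 to 106.

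The gypsy element itself had the largest gain in reads and did not pass the test. Its sense level was 1926 in siLUC, 18371 in siYB and 32548 in siARMI. The split log2 ratio of siYB over siLUC was 3.25, and the size worked out from the p-value and the shrunk estimate of the siYB table alone was 2.95. Its unadjusted p was 0.0219 in the authors' deposited table, which ranked 43 of 8478.

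All sense rows with a split summed to 116575 normalised counts in siLUC and 145853 in siYB, or 7.11% and 8.86% of all counts, and to 11.4% in siARMI. Of the difference between siYB and siLUC, 16446 counts were gypsy and 10953 were the 8 called families, whose sum went from 853 to 11806. The other 81 sense rows summed to 113796 in siLUC and 115675 in siYB. That small net sum includes larger split differences of opposite sign, such as copia with 24416 counts in siLUC and 28145 in siYB (unadjusted p = 0.822 in the authors' deposited table) and springer with 79320 and 75879. Neither row passed the test, and these differences cannot be told from error of the split.

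The other sense rows of the gypsy group gave smaller or no differences. The family springer, which took most sense transposon reads, had an unadjusted p of 0.684 in the authors' deposited table. The split level of ZAM, an endogenous retrovirus of follicle cells, was 6.59 in siLUC and 18.8 in siYB (unadjusted p = 0.277 in the authors' deposited table). The split level of gtwin was 8.32 in siLUC and 16.6 in siYB, and that of gypsy5 was 2.29 and 9.94, with unadjusted p of 0.381 and 0.308 in the authors' deposited table. HMS-Beagle had 49.5 counts in siLUC and 90.6 in siYB (unadjusted p = 0.135 in the authors' deposited table). The row gypsy3_new pointed downward, with 24.7 and 12.8 counts, at an unadjusted p of 0.854 in the authors' deposited table.

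Outside the gypsy group no sense row was called. The non-LTR family I-element, a retrotransposon known from hybrid dysgenesis, was listed as I-element_new and had 69.8 counts in siLUC, 204 in siYB and 422 in siARMI. Its unadjusted p of 0.00175 and adjusted p of 0.627 (Benjamini-Hochberg) in the authors' deposited table left it short of the threshold, and it was 1 of 23 sense non-LTR rows with an unadjusted p under 0.05. With gypsy and the 8 called rows it made up the 10 sense rows higher at that level (11.1% of 90). Among 13 sense rows of the roo, Bel and copia families and 12 of DNA transposons, 0 were called (Benjamini-Hochberg) and 0 had an unadjusted p under 0.05 according to the authors' deposited table. The lowest p in those lists was that of flea, which had 131 counts in siLUC and 227 in siYB (unadjusted p = 0.0742 in the authors' deposited table), and NOF, with 5.53 and 24.0 (unadjusted p = 0.164 in the authors' deposited table).

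Antisense transposon transcripts of 2 gypsy-group families fell. Antisense rover stood at 343 in siLUC, 113 in siYB and 70.1 in siARMI, with an adjusted p of 6.08e-05 in the authors' deposited table (Benjamini-Hochberg). Its unshrunk log2 fold change of −2.47 gave 386 in siLUC and 69.5 in siYB instead. The order of siYB and siARMI for this row is therefore uncertain. Antisense gypsy5 stood at 403 in siLUC, 173 in siYB and 115 in siARMI, with an adjusted p of 0.0488 in the authors' deposited table (Benjamini-Hochberg), the closest of the called rows to the threshold. Its split log2 ratio was −1.22, while the size from its p-value and shrunk estimate was −2.01. Those were 2 of 93 antisense rows (2.15%). Called higher were 0 of 93 (0%) in the authors' deposited table (Benjamini-Hochberg), and 1 (1.08%), antisense roo, was higher at an unadjusted p under 0.05. In sense orientation rover had 3.41 and 3.82 counts in siLUC and siYB, so for this family and gypsy5 most reads were antisense.

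Another 7 antisense rows were lower at an unadjusted p under 0.05 without being called, which made 9 of 93 (9.68%), of which 8 were gypsy-group rows and 1, G6, a non-LTR row. Antisense 412 went from 1314 in siLUC to 777 in siYB and antisense mdg1 from 365 to 208, at unadjusted p of 0.0161 and 0.0147 in the authors' deposited table. Antisense gtwin had 1968 and 1181 counts and antisense gypsy 1889 and 1140, at unadjusted p of 0.0247 and 0.0269 in the authors' deposited table. For antisense Tabor the levels were 302 and 173, for antisense gypsy10_new 524 and 331, and for antisense G6 193 and 84.2. The exception in direction was antisense roo, with 287 counts in siLUC, 527 in siYB and 1300 in siARMI (unadjusted p = 0.0383 in the authors' deposited table). Antisense rows together made up 0.916% of all counts in siLUC, 0.672% in siYB and 0.605% in siARMI.

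Sense and antisense rows of a family were set side by side for all 83 families measured on both strands, with no filter on level. In 41 of them the sense split ratio was above 0 and the antisense ratio below 0, and in 8 it was the other way round. Both ratios were above 0 in 16 families and below 0 in 18. Many of these ratios are small or rest on few counts, and the tally depends on the siLUC levels from the siARMI table, so it is a description and was not tested. With the tables scaled by their summed means the 4 counts were 43, 5, 21 and 14. For 7 of the 8 called sense families the antisense ratio was below 0, and for 3 of them, mdg1, 412 and Tabor, with an unadjusted p under 0.05 according to the authors' deposited table. The remaining family was Quasimodo, whose antisense level was 55.1 in siLUC and 58.7 in siYB. Over all 93 antisense rows, 65 had a deposited sign below 0 and the median split log2 ratio was −0.25. A ratio below 0 was therefore common among antisense rows in general and not particular to the called families. The reading of the row suffix as antisense is not documented in the table.

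**Figure D4:**
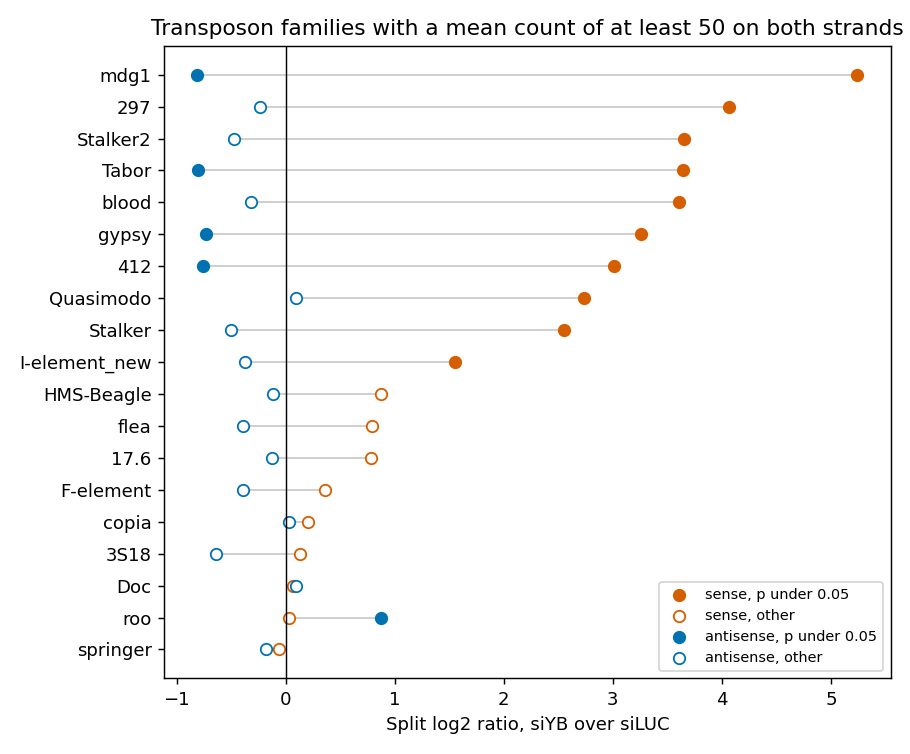
Split log2 ratio of siYB over siLUC (horizontal axis) for the sense (orange) and antisense (blue) rows of the 19 families with a mean count of at least 50 on both strands; filled points have an unadjusted p under 0.05. Sense 297, 412, Tabor, Stalker and HMS-Beagle were below 50 in siLUC and reached that mean through siYB, so the families drawn are not a neutral choice; the sense points reach 5.24 for mdg1, and the filled antisense point above 0 is roo.

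Few genes were called. Of 8295 genes tested 4 were called higher (0.0482%) and 2 lower (0.0241%), among them the targeted gene. According to the authors' deposited table, 35 were higher (0.422%) and 11 lower (0.133%) at an unadjusted p under 0.05. Of these 46 genes, 12 had a mean count under 5, all on the higher side. With a mean of at least 50 there were 17 higher and 11 lower.

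**Figure D5:**
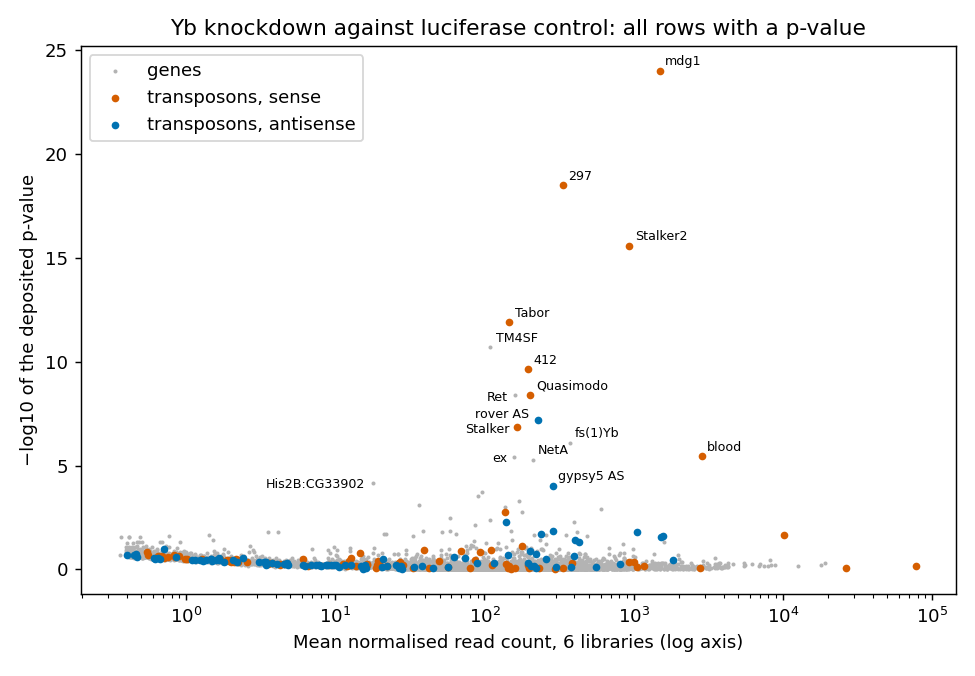
The −log10 of the deposited unadjusted p-value (vertical axis) against the mean normalised read count over 6 libraries (horizontal log axis) for genes (grey), sense transposon rows (orange) and antisense transposon rows (blue; AS in the labels), with the 16 called rows named. Transposon rows make up 10 of the 16 called rows, mdg1 being the highest point.

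TM4SF, which encodes a tetraspanin, a membrane protein that organises surface receptors, rose the most among genes with a usable size. Its split level was 15.6 in siLUC, 203 in siYB and 146 in siARMI, a log2 ratio of 3.70 for siYB over siLUC (Benjamini-Hochberg adjusted p = 3.45e-08 in the authors' deposited table). The gene (FBgn0020372) lies on 2R at 23878197-23880860, plus strand, in BDGP6.54. Of 22 tetraspanin genes measured it was the only 1 with an unadjusted p under 0.05 according to the authors' deposited table. The next, Tsp42Ea, had 69.3 counts in siLUC and 134 in siYB (unadjusted p = 0.0569 in the authors' deposited table).

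Ret, a receptor tyrosine kinase related to mammalian RET, also rose, from 38.3 in siLUC to 281 in siYB, with 455 in siARMI. The split log2 ratio was 2.88 (Benjamini-Hochberg adjusted p = 4.44e-06 in the authors' deposited table). It lies on 2L at 21182446-21198762, minus strand, in BDGP6.54 (FBgn0011829). Among 23 receptor tyrosine kinases and their ligands no other gene had an unadjusted p under 0.05 according to the authors' deposited table. The nearest was sev, the sevenless kinase of photoreceptor fate, with 967 counts in siLUC and 660 in siYB (unadjusted p = 0.156 in the authors' deposited table).

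The gene ex, or expanded, which encodes an upstream FERM domain protein of the Hippo growth control pathway, rose from 56.1 in siLUC to 261 in siYB, with 307 in siARMI (Benjamini-Hochberg adjusted p = 0.00246 in the authors' deposited table). Its split log2 ratio was 2.22, and its position is 431227-448701 on 2L, plus strand, in BDGP6.54 (FBgn0004583). Of 19 Hippo pathway genes measured it was the only 1 with an unadjusted p under 0.05 according to the authors' deposited table. The transcriptional effector yki stood at 127 in siLUC and 128 in siYB, the kinase wts at 66.0 and 56.1, and the Yorkie target Diap1 at 259 and 215. The median split log2 ratio of the list was −0.03, beside −0.00 over all genes.

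NetA, which encodes the secreted guidance cue Netrin-A, fell from 314 in siLUC to 106 in siYB, with 13.2 in siARMI (Benjamini-Hochberg adjusted p = 0.00319 in the authors' deposited table). Its split log2 ratio was −1.57, while the size from its p-value and shrunk estimate was −2.46. The gene (FBgn0015773) lies on X at 14604012-14653928, minus strand, in BDGP6.54. The neighbouring paralog NetB had 24.4 counts in siLUC and 18.4 in siYB, and the netrin receptor fra had 103 and 99.2, at unadjusted p of 0.890 and 0.993 in the authors' deposited table. No other of the 11 netrin, slit and receptor genes had an unadjusted p under 0.05 according to the authors' deposited table.

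The last called gene was the histone row His2B:CG33902, with 35.6 counts in siYB, 63.8 in siARMI and fewer than 3 in siLUC, so no ratio is given (Benjamini-Hochberg adjusted p = 0.0384 in the authors' deposited table). It is a copy of a tandem repeated gene whose copies are near identical, and how the counting shared reads among them makes the row uncertain. The call was lost at an adjusted p threshold of 0.01, with Bonferroni adjustment and among rows at or above the median mean count. Among 25 histone rows 4 were higher and 1 lower at an unadjusted p under 0.05 according to the authors' deposited table.

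Genes flanking TM4SF, Ret, ex and NetA did not pass. The 2 measured genes on either side of each had unadjusted p between 0.381 and 0.973 in the authors' deposited table. Of the 46 genes with an unadjusted p under 0.05, among 8295 tested, 14 of 1436 measured lay on 2L, 11 of 1567 on 3L, 11 of 1412 on X, 5 of 1636 on 2R, 5 of 1977 on 3R and 0 of 65 on chromosome 4. Those on 2L include all histone rows at that level, 4 higher and 1 lower, whose counts are uncertain.

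Among genes that were not called, Oat, which encodes ornithine aminotransferase, was nearest to the threshold, with 37.8 counts in siLUC, 156 in siYB and 397 in siARMI (Benjamini-Hochberg adjusted p = 0.0910 in the authors' deposited table). The adaptor gene p130CAS of integrin signalling stood at 85.6, 253 and 478 in the same order of groups. Cda5, a chitin deacetylase gene, stood at 5.70, 67.3 and 368. IRSp53, whose protein shapes membranes and actin, had 341 counts in siLUC, 870 in siYB and 1242 in siARMI. The adjusted p (Benjamini-Hochberg) was 0.237 for p130CAS, 0.353 for Cda5 and 0.505 for IRSp53 in the authors' deposited table.

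Zasp66, a gene of the muscle Z-disc that was among the muscle markers, had 128 counts in siLUC, 54.0 in siYB and 8.00 in siARMI (Benjamini-Hochberg adjusted p = 0.143 in the authors' deposited table). Examples of other genes lower in siYB at an unadjusted p under 0.05 were Notum, a Wnt deacylase gene, with 93.9 counts in siLUC and 35.2 in siYB, ImpL2, an insulin-binding protein gene, with 206 and 100, and nab, a transcriptional cofactor gene, with 117 and 53.2. Examples on the higher side at that level were Shal, a potassium channel gene, with 12.8 and 65.1, Lgr4, a G protein-coupled receptor gene, with 22.3 and 81.1, Sema5c, a semaphorin gene, with 150 and 282, and vari, a septate junction scaffold gene, with 170 and 304. Genes with a lower p than these examples included CG9747, with 123 and 48.5, and SP2353, with 69.4 and 207. None of these was called in the authors' deposited table (Benjamini-Hochberg).

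Some genes with a low p after Yb knockdown did not follow the order siLUC, siYB, siARMI. Fas2, an immunoglobulin-type adhesion gene, had 249 counts in siLUC, 106 in siYB and 733 in siARMI, with an unadjusted p of 0.00178 for siYB in the authors' deposited table. CG14441 had 204, 95.4 and 381, with an unadjusted p of 0.0135 for siYB in the authors' deposited table. CG3726 had 546 counts in siLUC, 282 in siYB and 559 in siARMI, with an unadjusted p of 0.0154 for siYB in the authors' deposited table. The kelch gene kel, which builds actin ring canals, had a higher level in siYB (638) than in siARMI (560), over 341 in siLUC. TM4SF, a called gene, was likewise higher in siYB (203) than in siARMI (146), over 15.6 in siLUC. These are examples picked out after their values were seen. Apart from TM4SF none of them was called after Yb knockdown, and the difference between the knockdowns was not tested.

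In the piRNA machinery itself the targeted gene was the row that passed. Of 18 cytoplasmic biogenesis factors 1 was called, fs(1)Yb, and the other 17 had unadjusted p of 0.530 or more in the authors' deposited table. Armitage transcripts (armi) stood at 2376 in siLUC and 2908 in siYB, piwi at 1380 and 1428, the Tudor gene vret at 143 and 128, and the endonuclease gene zuc at 23.8 and 16.9. The cochaperone gene shu had the lowest p of the 17, with 232 and 195. Of 22 nuclear silencing factors acting with Piwi 0 were called (Benjamini-Hochberg) and 0 had an unadjusted p under 0.05 according to the authors' deposited table. Over all 8295 genes 0.0482% were called higher and 0.0241% lower, and 0.422% and 0.133% passed the unadjusted threshold. Lists this small are therefore not shown to be unaffected. The methyltransferase gene egg stood at 318 in siLUC and 324 in siYB, Panx at 55.3 and 55.1, and the maelstrom gene mael at 186 and 204. For ctp, the gene of a dynein light chain that joins the Panx complex, the split gave 307 and 867, against an unadjusted p of 0.403 and a negative sign in the authors' deposited table, so the split is not reliable for that row. The gene tj, whose transcript is a known source of genic piRNAs, had 1742 counts in siLUC and 1496 in siYB (unadjusted p = 0.496 in the authors' deposited table). The flamenco transcript was not analysed here.

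Other gene groups gave 0 called rows (Benjamini-Hochberg) and 0 with an unadjusted p under 0.05 according to the authors' deposited table. They were 12 genes of the siRNA and microRNA machinery, 17 of planar polarity and cadherins, 18 heat shock, 15 JNK pathway, 13 cell death and DNA damage, 13 immune, 25 cell cycle, 87 cytosolic ribosomal protein, 65 respiratory complex and 35 proteasome genes. Over all 8295 genes, 0.0482% were called higher and 0.0241% lower. At the unadjusted threshold in the authors' deposited table the shares were 0.422% and 0.133%. Finding 0 in lists of these sizes therefore does not set them apart from genes in general. The heat shock gene with the lowest p, Hsp68, had 186 counts in siLUC, 297 in siYB and 665 in siARMI (unadjusted p = 0.0998 in the authors' deposited table). Among cadherins it was Cad87A, with 144 counts in siLUC and 237 in siYB (unadjusted p = 0.0845 in the authors' deposited table), and stan, a planar polarity cadherin gene, had 7.79 and 28.0. Median split log2 ratios of these 10 lists lay between −0.08 and 0.11.

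Both groups carried markers of follicle cells and few of other cell types. The follicle cell regulators tj and zfh1 were present at 1742 and 2323 counts in siLUC, and the germ cell genes vas, bam and osk at fewer than 3 in siLUC and in siYB. Of 9 follicle cell markers 1, the adhesion gene Fas3, had an unadjusted p under 0.05, with 179 counts in siLUC, 337 in siYB and 787 in siARMI (unadjusted p = 0.0220 in the authors' deposited table), and 0 were called (Benjamini-Hochberg). Their summed split level was 5543 in siLUC and 4496 in siYB, with zfh1 at 2323 and 1631 and the Hedgehog receptor gene ptc at 862 and 615. Summed levels in siLUC and siYB were 372 and 351 for 9 germ cell markers, 170 and 105 for 5 muscle markers, 84.6 and 83.4 for 5 neuron and glia markers, and 182 and 116 for 3 hemocyte and fat body markers. Nearly all of the germ cell sum was krimp and del. Within the muscle list the difference was that of Zasp66, and the heavy chain gene Mhc stood at 10.9 and 13.2. The part of these shifts in the called rows was not tested.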

How the data were processed

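RNA of siYB and siLUC cells (3 libraries each) was sequenced with a directional kit after poly(A) selection, per the labels' protocols; the tag RZ in the titles is not explained there. Salmon 1.7.0, STAR, Bowtie, HOMER, DESeq2 and edgeR are named, without roles, in the submitters' processing notes, and a genome build was not given in the sources used here. Per the file headers, the deposited tables hold, for each row, a mean normalised count (a signal averaged over both groups), a log2 fold change with its error, and a p-value with an adjusted p-value. The authors' adjusted p-values were recomputed by the Benjamini-Hochberg method over 8478 rows to a largest difference of 3.64e-14. The log2 fold changes had been shrunk by the authors, with an error of about 0.001 on the natural log scale in the shrunk rows of the deposited table. Depth per library is unknown. Its effect on precision, and its part in the lower summed counts of the siYB comparison, therefore cannot be given.

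The tables hold no per-library values, so the planned count tests were not run and the deposited p-values were used. Split levels were computed from both tables as 2 times the mean, parted by the siARMI fold change (Python 3.11.15, pandas 2.3.3, numpy 2.4.6, scipy 1.17.1, matplotlib 3.10.9). The calculation was also run on simulated counts, with changes set only in rows of higher siLUC count. That does not give the error of the split in these data. A split was obtained for 8364 rows: 111 rows have no siARMI row, and 5 gave a siYB level not above 0. Of 8297 gene names 8096 matched a symbol in the reference names. Positions come from BDGP6.54 (Ensembl release 115). Row names ending in AS were read as antisense, and siYB over siLUC as the direction because fs(1)Yb was negative.

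The genes named are the called rows, rows among the 40 lowest p, the piRNA genes fs(1)Yb, armi, piwi and tj, gypsy-group sense rows, and in each list the members with an unadjusted p under 0.05 or else the 2 lowest. Further list members are named for their role. Some other genes with an unadjusted p under 0.05, such as Notum and kel, are named outside these rules. Members, lists and markers were chosen with earlier results of these data known. Alternatives were other thresholds, a Bonferroni adjustment, a filter at the median mean count (57.7), a minimum size and other scalings.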

Additional observations from a re-analysis of the deposited data

How the results depend on the processing

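The 8 sense transposon rows called higher were the same at adjusted p thresholds of 0.01 and 0.1, with Bonferroni adjustment, among rows at or above the median mean count and with an absolute deposited log2 fold change of at least 1. Antisense rows called lower dropped from 2 to 1 at the threshold of 0.01, to 1 with Bonferroni adjustment and to 1 with the minimum size, rover being the row left each time. Genes called lower dropped from 2 to 1 with the minimum size, since the estimate of NetA was shrunk to 0. Genes called higher were 3 to 5 in place of 4 under those settings: His2B:CG33902 was lost at 0.01, with Bonferroni adjustment, with the minimum size and with the filter on the mean, Oat was gained with that filter and at 0.1, and TM4SF, Ret and ex were called throughout. With the tables scaled by their summed means, the median split log2 ratio of all genes moved from −0.00 to 0.06, that of called rises from 3.60 to 3.64, fs(1)Yb from −1.58 to −1.45 and NetA from −1.57 to −1.44, and no called row changed direction. The size from the p-value and shrunk estimate, an alternative chosen after seeing the data, was larger than the split in 24 of 26 rows compared, and the median absolute difference was 0.35 on the log2 scale; for antisense gypsy5 it gave −2.01 in place of −1.22 and for NetA −2.46 in place of −1.57. No paired analysis was possible because the tables hold no values per library. Leaving out each replicate, another normalization and another tool were not run for the same reason, so the dependence of any call on 1 library is unknown.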
